A study of Mus musculus with 7 samples.

Results

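The Sox genes encode transcription factors that share a DNA-binding domain, the HMG box. 10 of them were examined here in mouse neural stem cells (NSCs): Sox1, Sox2, Sox3, Sox4, Sox5, Sox6, Sox8, Sox9, Sox11 and Sox21. They were chosen by name, as family members with known roles in neural precursors, and are 10 of the 55335 genes with a row in the count files. All 10 had a row and all 10 passed the filter on low counts, which kept 13305 genes. NSCs of the FVB/N strain were compared between 4 wild-type (WT) samples and 3 samples with the Smchd1MommeD1 allele (Smchd1-null), a null mutation of the chromatin repressor Smchd1. Both groups grew in the same proliferation medium with rh EGF and rh bFGF, with no other treatment, and neither the age nor the sex of the source animals was given. Libraries of polyadenylated RNA were copied to cDNA without amplification and sequenced on nanopore flow cells in 2 batches with different kit versions. WT replicate 2 and Smchd1-null replicates 1 and 2 were in batch 1, Smchd1-null replicate 3 and WT replicates 3 and 4 in batch 2, and WT replicate 1 in both. Nothing in the labels says whether samples came from separate animals, so the tests below measure the spread between these samples, which may be technical in part.

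Sox proteins bind short AT-rich sequences in the minor groove of DNA with the HMG box and act together with partner factors, such as POU proteins, that bind beside them. The family is divided into subgroups by sequence. SoxB1 factors (Sox1, Sox2, Sox3) keep neural precursors undifferentiated and the SoxB2 factor Sox21 counteracts them, while SoxC factors (Sox4, Sox11) take part in the activation of neuronal genes. SoxE factors (Sox8, Sox9 and Sox10) are known for the switch of precursors to glia and for oligodendrocyte development, and the SoxD factors Sox5 and Sox6, which lack a transactivation domain of their own, modulate the activity of other Sox proteins. Sox3 is X-linked, and Smchd1 is known for its part in X inactivation.

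In WT replicate 4, described below, Sox2 and Sox4 had their highest level of the 7 samples and Sox11 its lowest. No correlation between these 3 genes over the 7 samples passed 0.05 after adjustment. The sequences upstream of their start sites are shown as examples. These are the 250 bases before the RefSeq start (GRCm38.p6), in capitals where a Sox-type sequence (the letters ACAAAG, or in a shorter form ACAAT) or the CCAAT box (the letters CCAAT) occurs on either strand, so that reverse complements are also marked. The Sox-type forms and the CCAAT box did not overlap in these stretches.
Sox2, chr3:34649745-34649994, plus strand: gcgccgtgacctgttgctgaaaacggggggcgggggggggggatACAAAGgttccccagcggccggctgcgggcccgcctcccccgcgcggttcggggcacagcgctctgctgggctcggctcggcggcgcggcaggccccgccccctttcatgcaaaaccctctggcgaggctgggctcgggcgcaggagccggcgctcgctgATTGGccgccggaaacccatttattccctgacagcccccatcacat
Sox4, chr13:28953700-28953949, minus strand: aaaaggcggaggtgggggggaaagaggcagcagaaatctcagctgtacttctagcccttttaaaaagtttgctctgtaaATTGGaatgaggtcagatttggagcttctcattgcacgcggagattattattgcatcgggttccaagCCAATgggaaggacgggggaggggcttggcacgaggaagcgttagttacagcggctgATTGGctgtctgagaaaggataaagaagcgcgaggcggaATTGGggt
Sox11, chr12:27342719-27342968, minus strand: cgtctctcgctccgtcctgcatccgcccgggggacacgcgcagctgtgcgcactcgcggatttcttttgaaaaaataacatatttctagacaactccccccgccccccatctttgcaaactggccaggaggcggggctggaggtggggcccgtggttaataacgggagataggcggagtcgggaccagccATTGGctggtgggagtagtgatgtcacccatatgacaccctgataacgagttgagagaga

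The stretches differ in base composition, with a GC content of 72% for Sox2, 50.8% for Sox4 and 58% for Sox11 and with 27, 11 and 17 CpG dinucleotides. All of them hold the letters CCAAT, with 4 matches in Sox4 and 1 each in Sox2 and Sox11. Sox2 alone of the 3 holds a Sox-type sequence, ACAAAG, which begins at position -206 when the start site is counted as 0. RefSeq places the start of Sox2 410 bases and that of Sox11 144 bases upstream of the Gencode start, whereas the Sox4 starts differ by 14 bases. Of the 10 genes, 8 had a RefSeq window from 250 bases before to 50 bases after the start. ACAAAG was present in a window of 2 of these 8 genes (Sox2 and Sox6), ACAAT in 2 (Sox5 and Sox6) and CCAAT in 5, compared with 18.7%, 31% and 37.4% of all 32851 windows. Sox6 has 6 windows, so it had more chances of a match. A match describes the letters only and no binding was measured.

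The 7 libraries held between 2.74 and 7.74 M gene-level counts, and the 10 Sox genes took 0.150% to 0.197% of them. Smchd1 lay between 55.7 and 74.7 counts per M counts (CPM) in WT and between 12.8 and 18.4 CPM in Smchd1-null samples, with a log2 fold change (logFC, Smchd1-null over WT) of -2.15 (SE 0.18, adjusted p = 1.1e-04), in the direction of the labels. The NSC label was examined with 9 markers fixed as a list, all 9 of which passed the filter. These were Nes, Vim, Sox2, Pax6, Fabp7, Slc1a3, Hes5, Msi1 and Prom1, so the list includes Sox2, itself one of the 10 genes examined here. The summed level of the 9 markers was 8634 to 13547 CPM in WT and 8298 to 9833 CPM in Smchd1-null. Fabp7 made up most of this sum, with 5059 to 9464 CPM in WT and 4511 to 6211 CPM in Smchd1-null, and was highest in WT replicate 4. Nes was lowest in that sample, with 211 CPM, where the other samples had 231 to 409 CPM. Both genes also differed with batch. Samples run in batch 2 only had 211 to 283 CPM of Nes and 6211 to 9464 CPM of Fabp7. The remaining samples had 360 to 409 and 4511 to 5116 CPM. In the limma fit with genotype and batch, the adjusted p for batch was 0.00319 for Nes and 0.0144 for Fabp7, with 12.4% of all tested genes under 0.05. Summed markers of microglia, endothelial cells and fibroblasts or pericytes were at most 1.55, 5.83 and 3.43 CPM in any library. WT replicate 4 stood apart from the other samples in several Sox genes and in glial markers, and had the lowest sample weight in the fit (0.447, with 0.654 to 2.03 in the other samples). Fits without it are therefore given beside the Sox genes and lists that it touches. No samples of the same group agreed within counting error (the lowest chi-square per degree of freedom was 2.65).

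The level of each Sox gene in WT was examined first. On the scale per kb, Sox2 and Sox4 led the order and Sox5, Sox6 and Sox1 closed it, which differed in CPM (below). Per kb of gene length, Sox2 had 169 ± 28.7 CPM per kb (SD, n = 4) and Sox4 126 ± 19.6 CPM per kb (SD, n = 4), followed by Sox9 with 68.8 ± 11.6 (SD, n = 4) and Sox3 with 47.8 ± 16.2 (SD, n = 4). A middle group was formed by Sox8 with 21.7 ± 6.39, Sox21 with 18.3 ± 0.42 and Sox11 with 18.1 ± 3.85 CPM per kb (SD, n = 4 each). Sox6 with 5.43 ± 1.5, Sox1 with 4.73 ± 1.84 and Sox5 with 2.01 ± 0.18 CPM per kb (SD, n = 4 each) were lowest, 84.3-fold between the first and the last gene. Of the 9 pairs of neighbours in this order, 3 did not overlap in their WT samples: Sox4 over Sox9, Sox11 over Sox6 and Sox1 over Sox5. The other 6 pairs overlapped, and Sox21 and Sox11 had nearly the same mean although Sox21 was above Sox11 in 1 of 4 WT samples only.

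**Figure D1:**
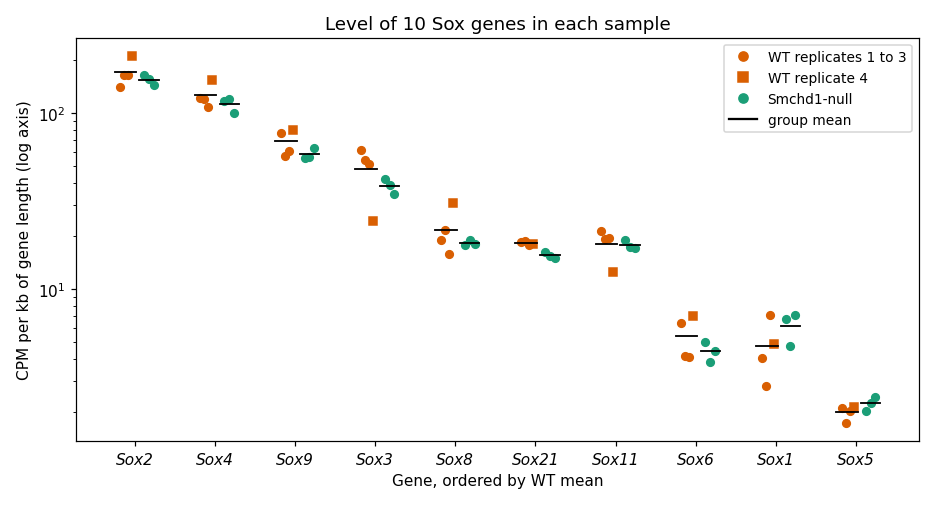
Level of each Sox gene in every sample, as CPM per kb of gene length on a log axis, with WT samples in orange (WT replicate 4 as squares), Smchd1-null samples in green and the group means as black lines. Sox2 and Sox4 lie highest and Sox5 lowest in both groups, and WT replicate 4 is the lowest sample of Sox3 and Sox11 and the highest of Sox2, Sox4 and Sox8.

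The order depended on the scale. Nanopore cDNA reads are not fragmented, so a long gene does not give more reads per molecule by its length alone. Division by length can therefore place long genes too low, and the CPM order is the closer one to numbers of molecules. In CPM, Sox4 led with 603 ± 94.0, followed by Sox2 with 349 ± 59.1, Sox9 with 284 ± 47.9 and Sox11 with 150 ± 32.0 CPM (SD, n = 4 each). Sox1 was last with 22.8 ± 8.88 CPM (SD, n = 4), a span of 26.4-fold. 9 of the 10 genes changed rank between the scales, and Sox9 kept the rank of 3. Sox4 and Sox2 did not overlap in their WT samples in CPM. Sox11 moved from 7 per kb to 4 in CPM, as its gene model has 8311 bases, and Sox6 from 8 to 6. The deposited lengths of Sox5 (14376 bases, 14 transcripts in the annotation) and Sox6 (14832 bases, 16 transcripts) merge many exons, so their levels per kb are lower than those of a single transcript would be. Without WT replicate 4, Sox11 lay above Sox8 and Sox21 per kb. Among the 13305 tested genes, the WT mean CPM placed Sox4, Sox2 and Sox9 at percentiles 98.3, 96.8 and 95.8, and Sox5 and Sox1 at 54.6 and 48.0.

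**Figure D2:**
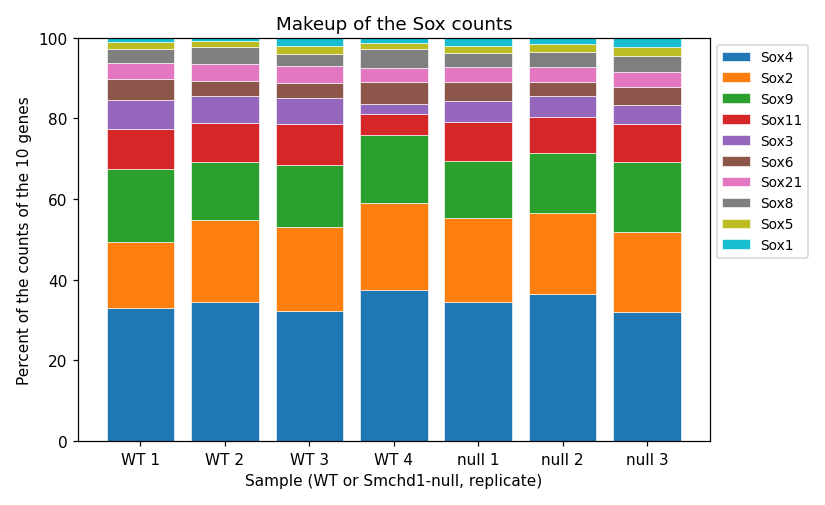
Percent of the summed counts of the 10 Sox genes taken by each gene, as stacked bars from 0 to 100 for the 4 WT and 3 Smchd1-null samples. Sox4 takes 32.1% to 37.3% and Sox2 16.3% to 21.8% in every sample, while Sox3 and Sox11 take 2.54% and 5.24% in WT replicate 4 and 6.55% to 7.16% and 9.64% to 9.98% in the other WT samples.

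In the SoxB1 subgroup, Sox2 was the most abundant in every sample and Sox1 the least. Sox2 (ENSMUSG00000074637.7, a gene of 1 exon on the plus strand of chromosome 3 from 34650405 to 34652461) maintains the self-renewal of neural precursors. Its values were 289, 337, 337 and 431 CPM in WT replicates 1 to 4, and 338, 321 and 294 CPM in Smchd1-null replicates 1 to 3. WT replicate 4 was the highest sample, and the other WT samples lay in the range of the Smchd1-null samples but for WT replicate 1, just below it. A logFC of -0.04 was found between the genotypes (SE 0.12, 95% interval -0.30 to 0.22, adjusted p = 0.907), which turned to 0.02 without WT replicate 4.

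Sox3 (ENSMUSG00000045179.9, 1 exon, minus strand of chromosome X, 60891366 to 60893430) acts beside Sox2 in neural precursors. Sox3 reached 127, 112, 106 and 50.2 CPM in WT replicates 1 to 4 and 86.3, 80.0 and 71.4 CPM in Smchd1-null replicates 1 to 3. WT replicate 4 was below every Smchd1-null sample and the other 3 WT samples were above all of them. The difference of -0.33 (SE 0.19, 95% interval -0.74 to 0.08, adjusted p = 0.432) did not pass either threshold. Leaving out WT replicate 4 gave -0.50 (adjusted p = 0.301), and -0.53 in a fit that also held the batch share (adjusted p = 0.058), which passed 0.25. Leaving out WT replicate 1, the highest sample, gave -0.18 (adjusted p = 0.781). The fit with the batch share and without WT replicate 4 was chosen after the values were seen, and it leaves out the only WT sample that opposed the direction.

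Sox1 (ENSMUSG00000096014.1, 1 exon, plus strand of chromosome 8, 12395295 to 12400126) marks early neural precursors. Its levels were 19.5, 13.5, 34.6 and 23.7 CPM in WT replicates 1 to 4 and 32.7, 22.9 and 34.2 CPM in Smchd1-null replicates 1 to 3, and rested on 61 to 172 counts per sample. It was the most variable member in WT, with a coefficient of variation of 38.9% where counting alone would give 9.87%, and the genotypes overlapped. For Sox1 the genotype difference was 0.25 on the log2 scale (SE 0.25, 95% interval -0.29 to 0.79, adjusted p = 0.654). It rested on single samples, as it was 0.06 without WT replicate 2 (adjusted p = 0.908), 0.12 without Smchd1-null replicate 3 (adjusted p = 0.804) and 0.58 without WT replicate 3 (adjusted p = 0.536). The ratio of Sox2 to Sox1 counts ranged from 9.74 to 24.9 in WT and from 8.59 to 14.0 in Smchd1-null samples.

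Sox21, the SoxB2 member, was the least variable of the 10 genes in WT. It lies on the minus strand of chromosome 14 (ENSMUSG00000061517.8, 1 exon, 118233232 to 118237030). WT replicates 1 to 4 had 70.1, 71.3, 67.6 and 68.6 CPM and Smchd1-null replicates 1 to 3 had 61.9, 58.3 and 57.1 CPM. The 3 Smchd1-null samples were below all 4 WT samples, and Sox21 was the only one of the 10 genes without overlap between genotypes, while 5.53% of all tested genes had none. The coefficient of variation in WT, 2.33%, was smaller than the 5.62% that counting alone would give. With a logFC of -0.22 (SE 0.12, 95% interval -0.48 to 0.04, adjusted p = 0.411) it did not pass a threshold. In 20 alternative fits the logFC lay between -0.19 and -0.26. As the samples of the genotypes did not overlap, the sign could hardly turn in these fits. Exons of the lincRNA Gm4675 on the other strand share 713 bases, or 18.8%, of the Sox21 gene model and had 8 to 39 counts, so part of these counts cannot be assigned with certainty.

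The SoxC genes Sox4 and Sox11 together took more counts than any other subgroup, 681 to 841 CPM in WT and 623 to 718 CPM in Smchd1-null samples. Sox4 (ENSMUSG00000076431.4, 1 exon, minus strand of chromosome 13, 28948919 to 28953713) had 584, 570, 519 and 738 CPM in WT replicates 1 to 4 and 559, 575 and 480 CPM in Smchd1-null replicates 1 to 3. WT replicate 4 was again the highest and the genotypes overlapped, with a logFC of -0.05 (SE 0.12, 95% interval -0.31 to 0.20, adjusted p = 0.855) and -0.01 without WT replicate 4 (adjusted p = 0.988). In the Gencode M21 annotation, exons of the antisense lincRNA Gm26735 cover 54.6% of the Sox4 gene model. That lincRNA has no row of its own in the files.

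Sox11 (ENSMUSG00000063632.6, 1 exon, minus strand of chromosome 12, 27334264 to 27342574) had 177, 159, 161 and 104 CPM in WT replicates 1 to 4 and 157, 143 and 143 CPM in Smchd1-null replicates 1 to 3. WT replicate 4 was the lowest of the 7 samples and the other 3 WT samples were above all Smchd1-null samples by a small margin. The logFC was -0.07 (SE 0.14, 95% interval -0.36 to 0.23, adjusted p = 0.843) and -0.16 without WT replicate 4. Its sign turned without sample weights (0.01), with a trend in gene length removed (0.06) and without WT replicate 1 (0.02), so no direction was established. Sox4 counts were 3.22 to 3.58 times those of Sox11 in WT replicates 1 to 3, 7.12 times in WT replicate 4 and 3.36 to 4.02 times in Smchd1-null samples.

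Of the SoxD genes, Sox6 was above Sox5 in every sample. Sox6 (ENSMUSG00000051910.13, up to 17 exons, minus strand of chromosome 7, 115470872 to 116038796) had 94.99, 61.7, 61.3 and 104 CPM in WT replicates 1 to 4 and 73.9, 57.5 and 65.6 CPM in Smchd1-null replicates 1 to 3. WT replicates 1 and 4 were above all other samples, and the logFC was -0.23 (SE 0.18, 95% interval -0.61 to 0.15, adjusted p = 0.556). Its size varied between fits, from -0.10 without WT replicate 1 to -0.39 without WT replicate 3, and it was -0.11 with the batch share, -0.17 without WT replicate 4 and -0.02 with the trend in gene length removed. Sox5 (ENSMUSG00000041540.16, up to 15 exons, minus strand of chromosome 6, 143828425 to 144781977) had 30.5, 25.1, 29.1 and 30.9 CPM in WT replicates 1 to 4 and 29.3, 32.6 and 34.9 CPM in Smchd1-null replicates 1 to 3. It rested on 78 to 245 counts per sample, with a difference of 0.14 on the log2 scale (SE 0.15, 95% interval -0.18 to 0.46, adjusted p = 0.681).

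Sox9 was the most abundant of the SoxE genes, 3.48 to 5.42 times the counts of Sox8. Sox9 (ENSMUSG00000000567.5, 3 exons, plus strand of chromosome 11, 112782224 to 112787760), which is known for the gliogenic switch and for the identity of stem cells, had 319, 235, 252 and 332 CPM in WT replicates 1 to 4 and 230, 233 and 260 CPM in Smchd1-null replicates 1 to 3. WT replicates 1 and 4 were above the remaining 5 samples, in which the genotypes overlapped. Its difference of -0.24 (SE 0.13, 95% interval -0.51 to 0.04, adjusted p = 0.408) had the smallest p-value of the 10 genes in the fit with genotype only. With the batch share it was -0.10 (adjusted p = 0.86), and with batch and without the sample of both batches -0.05 (adjusted p = 0.939). With a sample left out it lay between -0.16 (without WT replicate 1, adjusted p = 0.7) and -0.31 (without WT replicate 3, adjusted p = 0.556), and it was -0.20 without WT replicate 4. Leaving out WT replicate 2 gave -0.29 (adjusted p = 0.223) and leaving out Smchd1-null replicate 3 gave -0.28 (adjusted p = 0.24), both past 0.25, in fits where 2924 and 3153 genes passed that threshold.

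Sox8 (ENSMUSG00000024176.10, minus strand of chromosome 17, 25565892 to 25570686), which acts beside Sox9 and Sox10 in glial cells, had 58.9, 67.1, 49.0 and 95.3 CPM in WT replicates 1 to 4 and 55.2, 58.8 and 56.1 CPM in Smchd1-null replicates 1 to 3. WT replicate 4 was the highest by a wide margin. The logFC of -0.09 (SE 0.16, 95% interval -0.44 to 0.27, adjusted p = 0.825) became 0.01 without WT replicate 4. An antisense gene, 2810468N07Rik, shares 329 exon bases with Sox8 (10.6% of its model) and had 91 to 359 counts, the most in WT replicate 4. Reads of the pair cannot be told apart with certainty where counting used no strand.

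To see whether the Sox genes differed with the loss of Smchd1, the 10 genes were then read together from the fit over all genes. With the cutoff for adjusted p-values at 0.05, none of the 10 was detected, with 0.0902% of the 13305 tested genes detected. At 0.25 none was detected either, with 1.08% of all genes, so a count of 0 among 10 genes is near both background shares. No member had an unadjusted p under 0.05 (limma), compared with 1843 of all genes. With edgeR's quasi-likelihood test, 0 members were detected at 0.05 and at 0.25, where 1 and 8 of all genes were. With DESeq2 the number was 0 at both cutoffs, with 17 and 32 of all genes. With so few genes detected, a count of 0 among 10 says little about the members. The size of a difference that remains possible is set by the intervals, which depend on the fit (the fit with batch is given below). In the fit with genotype only, all 10 intervals lay within 1 log2 unit of 0 on either side. The lowest bound was -0.74 (Sox3) and the highest 0.79 (Sox1), that is 0.598-fold and 1.73-fold. The bound farther from no change was nearest to it for Sox2 and Sox4, which lay between 0.812-fold and 1.17-fold and between 0.806-fold and 1.15-fold. The median logFC was -0.08 over the 10 genes and 0.00 over all tested genes, and 8 of the 10 values were below 0, compared with 49.4% of all tested genes. Without WT replicate 4 the median was -0.09 and 6 of the 10 values were below 0.

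**Figure D3:**
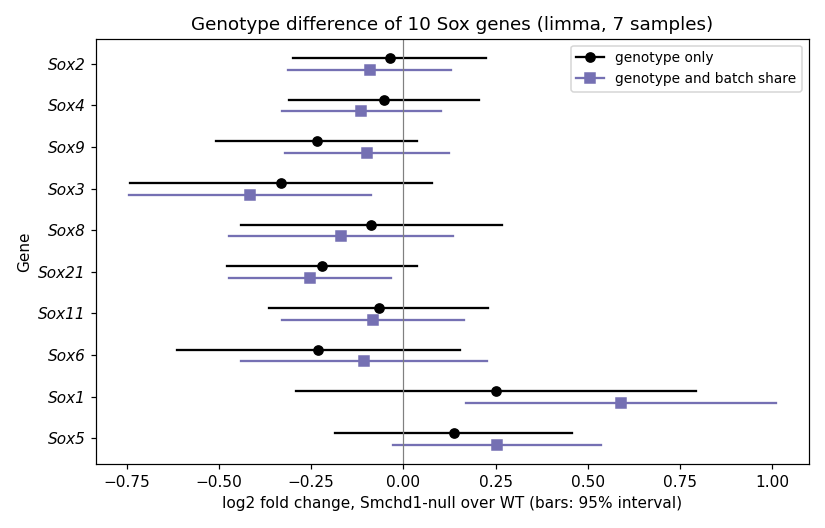
LogFC of Smchd1-null over WT for each Sox gene with its 95% interval as a bar, from the fit with genotype only (black circles) and from the fit with genotype and batch share (purple squares). All black bars cross 0, and the purple bars of Sox1, Sox3 and Sox21 do not.

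Both batches held both genotypes, which allowed a comparison within each, with 1 WT sample in batch 1 and 1 Smchd1-null sample in batch 2 and WT replicate 1 left out. The difference in mean log-CPM had the same sign in both batches for 8 of the 10 genes and for 55% of all tested genes. It was below 0 for Sox2, Sox3, Sox4, Sox8, Sox9 and Sox21 and above 0 for Sox1 and Sox5, whereas Sox6 and Sox11 had opposite signs. For Sox21 it was -0.25 in each batch, where the sign follows from the lack of overlap between the genotypes. For Sox3 it was -0.43 in batch 1 and -0.03 in batch 2, the batch that holds WT replicate 4, and for Sox1 0.99 and 0.25. With the batch share as a second term, the genotype coefficient was 0.59 for Sox1 (95% interval 0.17 to 1.01, adjusted p = 0.442), -0.42 for Sox3 (-0.74 to -0.09, adjusted p = 0.509) and -0.25 for Sox21 (-0.47 to -0.03, adjusted p = 0.561). These 3 intervals leave out 0, as those of 7.97% of all tested genes did, but none of the genes passed 0.25 after adjustment over all genes. The interval of Sox1 also reached past 1 log2 unit in this fit.

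Sox1 was the member most related to batch. Its level was 13.5, 32.7 and 22.9 CPM in WT replicate 2 and Smchd1-null replicates 1 and 2 of batch 1, and 34.6, 23.7 and 34.2 CPM in WT replicate 3, WT replicate 4 and Smchd1-null replicate 3 of batch 2. The batches overlapped, and the coefficient of batch 2 over batch 1 in the fit with both terms was 0.63 (SE 0.20, adjusted p = 0.0482), which passed 0.05. This call was lost in 10 of 15 alternatives, among them edgeR (adjusted p = 0.164), DESeq2 (adjusted p = 0.13), the fit without sample weights (adjusted p = 0.152) and leaving out WT replicate 1 (adjusted p = 0.0699), WT replicate 3 (adjusted p = 0.168) or Smchd1-null replicate 2 (adjusted p = 0.177). Leaving out WT replicate 1 and leaving out the sample of both batches are the same fit, which the 15 count under each name. The coefficient of Sox1 lay between 0.47 and 1.11 in the 15 alternatives. Over all genes, 1652 passed 0.05 in the main fit, 33 with edgeR, 340 with DESeq2 and 28 without sample weights. The number was 1479, 1011 and 941 without WT replicate 1, WT replicate 3 and Smchd1-null replicate 2. 1 of 10 members passed this threshold, with 12.4% of all tested genes. At 0.25, Sox1, Sox3 (-0.30, adjusted p = 0.248) and Sox9 (0.20, adjusted p = 0.248) passed, 3 of 10 with 38.7% of all genes. Leaving out WT replicate 2 or Smchd1-null replicate 3 removed all of these calls, and the number of all genes that passed 0.25 was then 10 and 7.

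WT replicate 4 differed from the other WT samples in the balance of the Sox genes. It was the highest of the 4 WT samples for 6 members and the lowest for 2, Sox3 and Sox11. Relative to the mean of the other WT samples, Sox8 was 1.63-fold, Sox6 1.43-fold and Sox4 1.32-fold, and Sox11 0.625-fold and Sox3 0.438-fold. Sox2 counts were 8.57 times those of Sox3 in WT replicate 4, between 2.28 and 3.18 times in the other WT samples, and between 3.91 and 4.12 times in Smchd1-null samples. Members of the same subgroup, Sox2 and Sox3 as well as Sox4 and Sox11, thus lay on opposite sides of the other WT samples. The summed level of the SoxB1 subgroup hid this, as it was 504 CPM in WT replicate 4 and 436 to 478 CPM in the other WT samples.

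**Figure D4:**
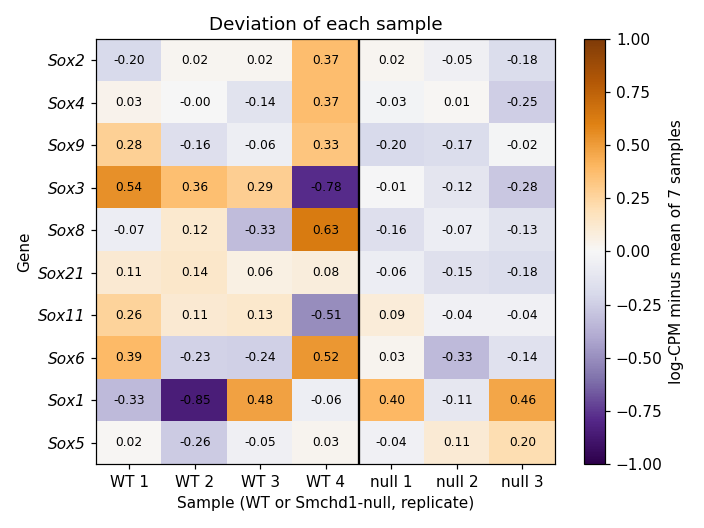
Log-CPM of each Sox gene in each sample minus its mean over the 7 samples, printed in each cell and coloured from purple (below) to orange (above), with WT samples to the left of the black line. WT replicate 4 has the lowest values of Sox3 (-0.78) and Sox11 (-0.51) and the highest of Sox8 (0.63), Sox6 (0.52), Sox2 (0.37) and Sox4 (0.37).

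Several markers of other neural cell types were also highest in WT replicate 4. The 5 oligodendrocyte markers summed to 381 CPM in WT replicate 4, to 97.3 to 188 CPM in the other WT samples and to 111 to 143 CPM in Smchd1-null samples. Of these markers, Mbp, which encodes myelin basic protein, had 96.2 CPM in WT replicate 4 and at most 4.44 CPM elsewhere, and Mog had at most 1.13 CPM in any sample. The 3 markers of oligodendrocyte precursors summed to 179 CPM, with 38.0 to 94.3 CPM in the other WT samples and 50.7 to 63.6 CPM in Smchd1-null. Sox10, the SoxE gene of the oligodendrocyte lineage and one of these markers, had 41.3 CPM in WT replicate 4, 2.10 to 14.9 CPM in the other WT samples and 6.01 to 11.4 CPM in Smchd1-null samples. The 5 astrocyte markers summed to 946 CPM, with 335 to 440 CPM in the other WT samples and 247 to 404 CPM in Smchd1-null. The 7 neuronal markers summed to 419 CPM, with 372 to 400 CPM in the other WT samples and 361 to 382 CPM in Smchd1-null. Map2, a microtubule protein gene, made up most of this sum, with 342 CPM in WT replicate 4 and 340 to 362 CPM in the other WT samples. Dcx, which encodes doublecortin of immature neurons, had 36.2 CPM in WT replicate 4, 3.15 to 11.97 CPM in the other WT samples and 3.00 to 4.55 CPM in Smchd1-null samples. Snap25, a gene of synaptic vesicle release, had 7.37 CPM, with 0.977 to 1.78 CPM in the other WT samples and 2.26 to 3.38 CPM in Smchd1-null. Tubb3 (15.1 CPM) and Syt1 (15.4 CPM) were also highest in WT replicate 4, but the remaining neuronal markers were not. Rbfox3 had 2.74 CPM there and 2.20 to 5.51 CPM in the other WT samples. Stmn2 had 0.514 CPM there and 0.666 to 1.05 CPM in the other WT samples, on 3 or 4 counts each. The part of other cell types in the Sox values was not tested, and in bulk samples fewer cells of a type and less RNA per cell cannot be told apart.

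Correlations of log-CPM between the members were computed over the 7 samples, 45 pairs in all, with exact permutation tests over 5040 pairings. Only Sox3 and Sox11 passed 0.05 after Benjamini-Hochberg adjustment, with Pearson's r = 0.949 (exact permutation p = 0.000595, adjusted p = 0.0268). Spearman's rho was 0.964 (exact permutation p = 0.00278) but did not pass after adjustment over the 45 pairs. Without WT replicates 4 and 1, the samples farthest from the median of Sox3, r was 0.883. For Sox2 and Sox3, r was -0.651 (exact permutation p = 0.113, adjusted p = 0.45) and rho -0.393 (exact permutation p = 0.396). Without WT replicates 4 and 1 it was 0.817, so the negative sign rests on those samples. The points share library scaling, batch and genotype, and batches and genotypes hold too few samples for a value within each.

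**Figure D5:**
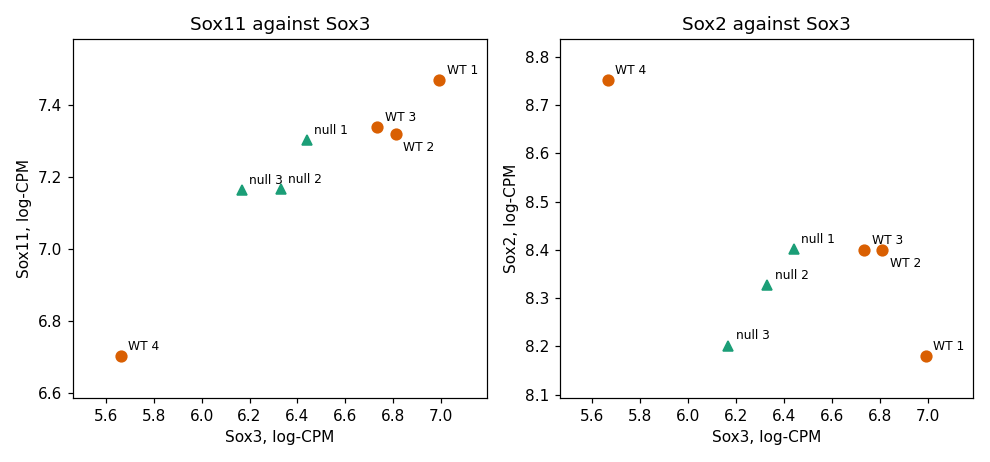
Log-CPM of Sox11 against Sox3 (left) and of Sox2 against Sox3 (right) in the 7 samples, with WT samples as orange circles and Smchd1-null samples as green triangles. Sox11 follows Sox3 from WT replicate 4 at the lower end to WT replicate 1 at the upper end, while WT replicate 4 lies at the top left in the plot of Sox2.

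The examined transcripts that are named after Sox genes reached at most 27.1 CPM in any sample, with Sox2ot the highest. Sox2ot, the long non-coding transcript in which Sox2 is embedded and which shares no exon bases with Sox2, was at 23.4, 21.1, 17.6 and 27.1 CPM in WT replicates 1 to 4 and 16.9, 12.8 and 20.6 CPM in Smchd1-null replicates 1 to 3. The genotypes overlapped, and the logFC was -0.51 (SE 0.21, adjusted p = 0.324). It passed 0.25 only without WT replicate 2 (-0.52, adjusted p = 0.213) or without Smchd1-null replicate 3 (-0.63, adjusted p = 0.109). In these fits 2924 and 3153 of all genes passed that threshold. Sox1ot had 4 to 14 counts per sample and a logFC of -0.55 (SE 0.38, adjusted p = 0.502). Sox5it was counted in Smchd1-null replicate 2 only, with 12 counts. Sox5os1, which shares 1330 exon bases with Sox5, had 0 counts in all 7 samples.

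Among 10 other members of the family, 3 passed the filter: Sox10, Sox12 and Sox13. Sox12, the remaining SoxC gene, had 48.0 to 67.9 CPM in WT and 41.3 to 70.6 CPM in Smchd1-null samples. The SoxD gene Sox13 had 15.8 to 26.4 CPM in WT and 20.6 to 22.2 CPM in Smchd1-null samples. None of the 3 passed 0.25, and the logFC of Sox10, 0.29 (SE 0.58, adjusted p = 0.833), lay on the other side of 0 from the difference of its group means, which were 16.6 ± 17.3 CPM for WT (SD, n = 4) and 9.06 ± 2.78 CPM for Smchd1-null samples (SD, n = 3). Without sample weights, which are lowest for WT replicate 4, it was -0.28. Sox14, Sox15, Sox17 and Sry had 0 counts in every library, where 3 counts would be 0.399 to 1.13 CPM. Sox7, Sox18 and Sox30 had at most 5 counts in any library.

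Genes that work with the Sox factors or lie downstream of them were read from lists. Of 12 partner factors, all of which passed the filter, none passed 0.25, with a median logFC of -0.21 (-0.18 without WT replicate 4). The most abundant of these were Pou3f3, a POU factor that binds beside Sox2, which averaged 251 ± 48.9 CPM over WT samples (SD, n = 4) and 248 ± 13 CPM over Smchd1-null samples (SD, n = 3), and the nuclear factor I genes Nfib and Nfia. Nfib averaged 223 ± 43.1 CPM over WT samples (SD, n = 4) and 203 ± 17.4 CPM over Smchd1-null samples (SD, n = 3), and Nfia 115 ± 21 and 108 ± 13.8 CPM (SD, n = 4 and 3). Of 10 genes linked to SoxB1 factors in neural precursors, none passed 0.25, 9 were below 0 and the median was -0.33 (-0.30 without WT replicate 4). In this list Fabp7, a fatty acid binding protein of radial glia, had a logFC of -0.34 (adjusted p = 0.36) and -0.24 without WT replicate 4 (adjusted p = 0.517). Nes, which encodes the filament protein nestin, had 0.11 (adjusted p = 0.786, and 0.01 without WT replicate 4), and Egfr, the receptor of the EGF in the medium, -0.31 (adjusted p = 0.328).

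Of 10 neuronal genes linked to SoxC factors, 8 passed the filter and 1 was detected at 0.25, with a median of -0.05 (0.05 without WT replicate 4). It was Stmn3, a regulator of microtubules, which rose from a WT mean of 53.4 ± 15.7 CPM (SD, n = 4) to a Smchd1-null mean of 89.1 ± 18.8 CPM (SD, n = 3), with a logFC of 0.92 (SE 0.19, adjusted p = 0.126). It kept its direction in all 20 alternative fits and missed 0.25 in 9 of them. Of 13 glial and cartilage genes linked to SoxE and SoxD factors, 10 passed the filter, none passed 0.25, 7 were below 0 and the median was -0.45. Without WT replicate 4, 9 passed the filter and the median was -0.27. The most abundant were Ptprz1, a receptor phosphatase of glial precursors, with -0.51 (adjusted p = 0.288), Olig2, a factor of the oligodendrocyte lineage, with 0.02 (adjusted p = 0.943), and Slc1a3, a glutamate transporter, with -0.39 (adjusted p = 0.3). Ptprz1 and Slc1a3 were highest in WT replicate 4, as were the glial markers, and without that sample they had -0.45 (adjusted p = 0.424) and -0.30 (adjusted p = 0.441). Aldoc, a glycolytic enzyme gene and the only astrocyte marker detected at 0.25, had a logFC of -0.81 (adjusted p = 0.233). Its level was 833 CPM in WT replicate 4, 298 to 403 CPM in the other WT samples and 212 to 366 CPM in Smchd1-null samples. Without WT replicate 4 it had -0.66 (adjusted p = 0.301), and with the batch share -0.45 (adjusted p = 0.389). It missed 0.25 in 13 of 20 alternative fits.

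The genes with the pattern most like 4 of the members over the 7 samples were listed from 11312 genes that had 10 or more counts in all samples. For Sox2 these were Tm2d1 (r = 0.996), Htra1 (r = 0.989) and Aamdc (r = 0.974), and 67 genes had r above 0.9. Sox4 was most like Fgfbp3 (r = 0.981), Npepps (r = 0.974) and Dusp23 (r = 0.973), with 60 genes above 0.9. Sox9 was most like Gpr137b-ps (r = 0.993), Gab2 (r = 0.989) and Wsb1 (r = 0.978), with 162 genes, and Sox11 most like Hpf1 (r = 0.993), Whrn (r = 0.991) and Nxf1 (r = 0.985), with 118 genes. These values describe 7 points that share library scaling, batch and genotype. No other Sox gene was among the 3 of any of them.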

How the data were processed

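Gene-level counts were analysed for 7 NSC samples. Per the methods of the study, the authors base-called reads with Guppy, aligned them to mm10 with minimap2 2.17 and assigned primary alignments to Gencode M23 (GRCm38.p6) genes with featureCounts in long-read mode. The deposited counts are whole numbers, not normalised, and runs of the same sample were summed by the authors. Counting was not stated to use strand. The length column is the deposited gene length in bases.

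Symbols and positions came from Gencode M21 (GRCm38). 55154 of 55335 identifiers matched with the version ignored and 181 did not. Genes were filtered with filterByExpr and scaled by TMM. Genotype was tested as in the study with limma's voomWithQualityWeights, two-sided, with Benjamini-Hochberg adjustment over 13305 genes. Adjusted p-values are from this fit unless named otherwise, and cutoffs were 0.05 and 0.25. Batch was tested in the same model with a batch share of 0, 0.5 (WT replicate 1) or 1 as a further term. CPM is per M TMM-scaled counts, and log-CPM has a prior count of 2. At 3 counts, taken as the floor, CPM was 0.399 to 1.13, and counting error was given as the coefficient of variation of Poisson counts. Promoter windows (RefSeq) were searched on both strands.

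The 10 genes and all lists were chosen with earlier results of these data known. Named outside the 10 were Smchd1, a list of other family members, overlapping or antisense transcripts, and, from lists of partner, SoxB1-, SoxC-, SoxE- and SoxD-linked genes, every gene under 0.25 and otherwise the 3 with the highest mean CPM. The 3 genes most correlated with Sox2, Sox4, Sox9 and Sox11 were also named. Markers of 8 cell types were listed, and those that moved with a sample were named after their values were seen. A member of the oligodendrocyte and SoxE-linked lists was left out and is not reported here. The genotype and batch fits were tested on simulated counts, as were DESeq2, edgeR, no sample weights, the replicate block and the length correction. No such test was made for the correlations, other scalings, filters or thinning. The alternatives tried were DESeq2, edgeR's quasi-likelihood test, no sample weights, other scalings, filters, batch terms, the replicate block, thinning, a length correction and each sample left out. Software was R 4.3.3, limma 3.58.1, edgeR 4.0.16 and DESeq2 1.42.0.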

Additional observations from a re-analysis of the deposited data

How the results depend on the processing

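Over 20 alternative fits, no Sox gene passed 0.05. At 0.25, where the reported number was 0, it was 1 with the replicate block (Sox3, -0.52, adjusted p = 0.0899), 1 with the batch share and without WT replicate 4 (Sox3), and 0 to 1 with a sample left out (Sox9 without WT replicate 2 or Smchd1-null replicate 3). Same-numbered samples deviated from their group means with correlations of -0.04, 0.36 and 0.09, so the numbers were not taken to pair samples. No Smchd1-null sample shares the number of WT replicate 4, so that sample had no part in the genotype difference under the block. Both fits in which Sox3 passed 0.25 thus set aside the only WT sample that opposed its direction. Sox9 was -0.10 with the block (adjusted p = 0.958). Of 200 member values, 5 changed sign: Sox2 (-0.141 to 0.0177 with a sample left out), Sox8 (-0.258 to 0.0113 with a sample left out) and Sox11 (without weights 0.00526, length trend removed 0.0636, -0.164 to 0.0152 with a sample left out). Sox10 changed sign with edgeR (-0.86), DESeq2 (-0.87), no weights (-0.28), the batch share (-0.23), the batch term without WT replicate 1 (-0.30) and with a sample left out (-0.65 to 0.71). The order in WT changed for 9 genes in CPM, for 2 with the median and for 0 to 3 with a sample left out. The 1 gene related to batch at 0.05 became 0 with edgeR, DESeq2, no weights, without the sample of both batches and with all genes of at least 1 count, and was 0 to 1 with a sample left out. The 3 at 0.25 became 1 with edgeR, DESeq2, no weights and all genes of at least 1 count, and were 0 to 3 with a sample left out. Over all genes, 5152 of 13305 passed 0.25 for batch in the main fit, 2463 with edgeR, 1519 with DESeq2 and 2525 without weights. With all genes of at least 1 count, 490 of 36857 passed 0.05 and 2249 passed 0.25. With a sample left out, 7 to 4920 genes passed 0.25. The alternatives for batch were added after the data were seen.

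The 12 and 144 genes detected among all genes at 0.05 and 0.25 were 1 and 8 with edgeR, 17 and 32 with DESeq2, 1 and 10 without weights, 2 and 22 with all genes of at least 1 count, 9 and 346 with at least 10 counts in every sample, 19 and 74 with the batch share, 5 and 31 with batch and without WT replicate 1, 23 and 129 with the block, 5 and 119 after thinning, 25 and 105 with the batch share and without WT replicate 4, and 1 to 161 and 1 to 3153 with a sample left out. The causes were not tested. Sox1 and Sox5 had the fewest counts, 61 to 245 per sample.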
